A study of Mus musculus with 13 samples.

Results

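The genes described here are 10 effectors, sensors and regulators of the type I interferon response (Ifit1, Ifit2, Ifit3, Mx1, Oas1a, Oasl2, Rsad2, Usp18, Ddx58 and Ifih1), chosen by symbol. They are covered by 14 probe sets annotated to these symbols alone, among 45101 on the array, and all 10 were among the 13785 genes tested, of 18193 with a probe set of a single symbol. RNA came from SM1 tumours, a transplantable mouse melanoma with mutant BRAF, grown in C57BL/6 mice that were given splenocytes by adoptive cell transfer. Control recipients, labelled Mock, received C57BL/6 splenocytes and then vehicle (2 arrays) or dabrafenib and trametinib together (2 arrays). The other mice received pmel-1 splenocytes, whose T cells recognise the melanocyte protein Pmel, and then vehicle (2 arrays), dabrafenib, which inhibits mutant BRAF (2 arrays), trametinib, which inhibits the kinase MEK downstream of it (2 arrays), or the 2 drugs together (3 arrays). All 6 groups thus carried the same tumour and had received splenocytes, and no untransferred mouse was measured. The labels give no age, dose or time, and do not say whether arrays of a group come from separate mice, so the p-values reflect only how far these samples spread, and that spread may be technical.

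Values are log2 intensities, so a difference of 1 is a doubling of the reading. Their precision is limited by how few arrays each group has. Differences are given ± SE from limma, fitted over all 13 arrays, with p-values adjusted by the Benjamini-Hochberg method over the 13785 genes. "Rose" and "fell" mean an adjusted p under 0.05. A reading under 5.79, the 40th percentile of all values, is taken as not well above background, and no fold is given against a group that lies wholly under it. In whole tumours fewer cells of a type and less RNA per cell cannot be told apart. Of 7 pigment cell markers 6 read above that level on at least 1 array of the control recipients, the exception being Tyrp1, and the mean of the 7 was 11.97 to 12.08 with vehicle and 12.61 to 12.76 with any drug. Muscle and fat differed between single arrays: Acta1 read 9.90 on control vehicle replicate 3 and at most 6.61 elsewhere, and Adipoq read 9.30 to 10.32 on pmel-1 dabrafenib replicate 2, combination replicate 2 and trametinib replicate 1.

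Cells sense foreign or misplaced RNA through the helicases RIG-I, the product of Ddx58, and MDA5, the product of Ifih1, which signal through the adaptor Mavs to switch on type I interferon genes. Secreted interferon binds Ifnar1 and Ifnar2, and the kinases Jak1 and Tyk2 then activate transcription factors, Stat2 and Irf9 among them, that bind interferon-stimulated response elements. The effectors act on RNA, translation and viral budding. Interferon gamma, made by T and NK cells, uses another receptor and overlaps with this programme only in part.

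Promoter windows of RefSeq (GRCm38.p6, 250 bases before to 50 after a transcription start) matched 8 of the 10 genes, all but Mx1 and Usp18. The core of the response element was searched as GAAA, any 2 bases and GAAA again, on both strands and with overlapping matches included. It was found in the windows of 6 of these 8 genes, and in 1079 of 27025 genes with a window (3.99%). Of 32 other tested genes of the type I interferon response that have a window, 11 held it. The 250 bases before the start are shown, 5′ to 3′ on the gene's strand, for 4 members whose matches lie there, with the matches in capitals. They show how the paired elements of the neighbouring genes Ifit1 and Ifit3 compare with the pair of Oas1a and the single element of Rsad2.
Ifit1, chr19:34640639-34640888, plus strand: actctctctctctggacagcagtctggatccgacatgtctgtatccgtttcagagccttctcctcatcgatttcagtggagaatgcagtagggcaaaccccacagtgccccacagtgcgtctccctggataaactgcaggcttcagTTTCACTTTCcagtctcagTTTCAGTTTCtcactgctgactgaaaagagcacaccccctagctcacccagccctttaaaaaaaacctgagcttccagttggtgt
Ifit3, chr19:34583279-34583528, plus strand: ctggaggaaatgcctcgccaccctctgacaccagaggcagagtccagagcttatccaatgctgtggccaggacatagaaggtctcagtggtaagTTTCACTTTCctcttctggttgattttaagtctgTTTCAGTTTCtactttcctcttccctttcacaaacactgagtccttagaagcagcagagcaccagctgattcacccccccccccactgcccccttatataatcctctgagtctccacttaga
Oas1a, chr5:120907526-120907775, minus strand: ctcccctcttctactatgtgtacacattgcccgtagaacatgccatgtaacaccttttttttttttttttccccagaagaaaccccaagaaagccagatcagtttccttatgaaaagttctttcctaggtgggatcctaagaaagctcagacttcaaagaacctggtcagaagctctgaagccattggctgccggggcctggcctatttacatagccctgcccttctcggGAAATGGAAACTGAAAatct
Rsad2, chr12:26456453-26456702, minus strand: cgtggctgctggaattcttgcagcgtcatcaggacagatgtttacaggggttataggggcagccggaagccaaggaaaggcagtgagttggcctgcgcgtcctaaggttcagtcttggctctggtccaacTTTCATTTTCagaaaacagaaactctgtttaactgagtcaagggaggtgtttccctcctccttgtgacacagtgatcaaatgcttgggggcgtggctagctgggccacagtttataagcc
Ifit1 and Ifit3 carry the same pair of letters, TTTCACTTTC and TTTCAGTTTC, on the reverse strand, from positions −104 and −85 relative to the start in Ifit1 and from −156 and −122 in Ifit3. In Oas1a GAAATGGAAA and GAAACTGAAA overlap, from positions −20 and −14. Rsad2 holds TTTCATTTTC from position −120. The sensors carry theirs after the start, Ddx58 as TTTCGATTTC from position 3 and Ifih1 as GAAACAGAAA from position 33. The windows of Ifit2 (2 of them) and Oasl2 hold no match, which says only that these letters are absent there. The shorter core AANNGAAA, which every longer match contains, was in the windows of 26.7% of all genes. The interferon gamma element TTCNNNGAA was in those of 2 of the 8 members, Ifit2 and Oas1a, and of 9.55% of all genes. These matches describe the sequence, and no binding was measured.

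The first comparison asks what the drug combination did in control recipients, where no pmel-1 cells had been given. Of the 10 genes 9 rose, by 0.56 to 2.10 on the log2 scale, and the tenth, Mx1, was at 0.94 ± 0.39 (adjusted p = 0.0828). The median difference was 1.43, beside −0.003 over all genes tested. In that comparison 18.7% of all genes rose and 16.7% fell. On all 10 genes both combination arrays read above both vehicle arrays, as they did for 35.1% of all genes tested.

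**Figure D1:**
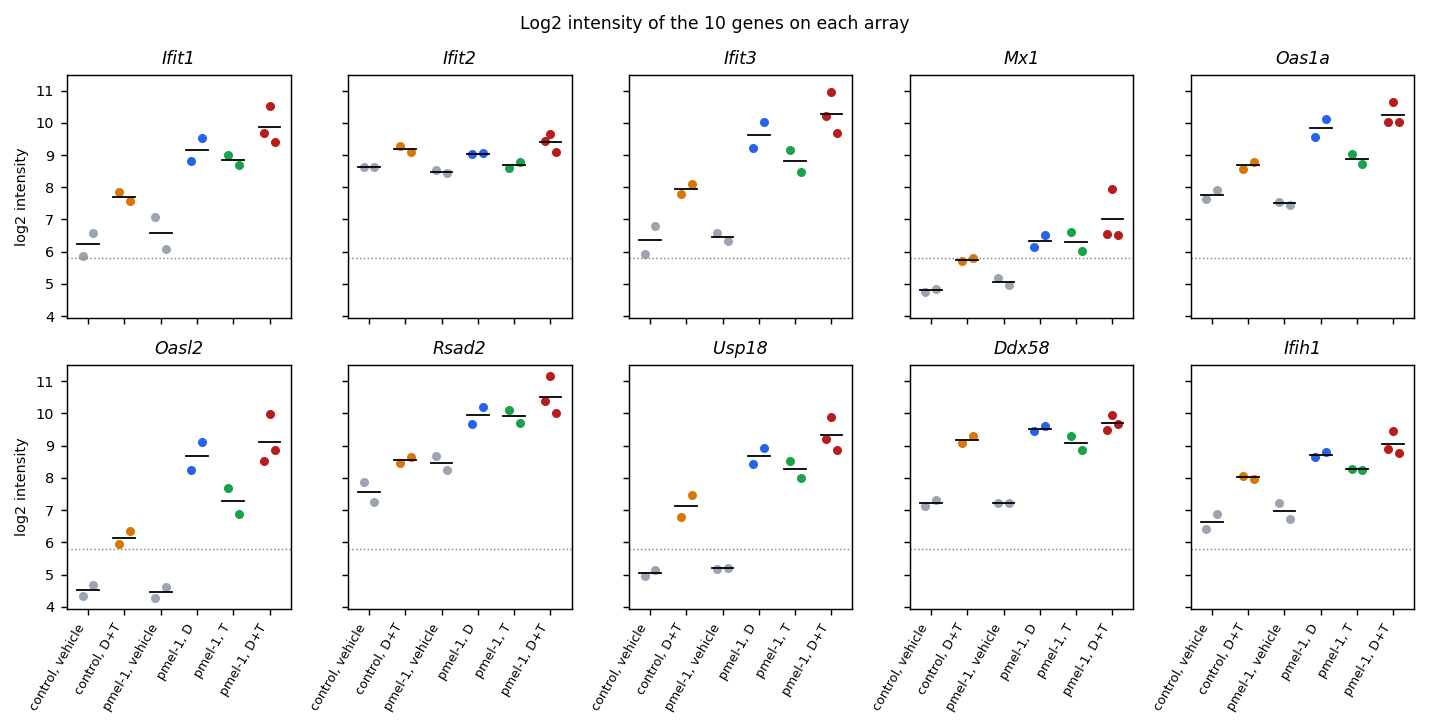
Log2 intensity of each gene (y axis, 1 panel per gene) on each of the 13 arrays, by group on the x axis, where D is dabrafenib, T is trametinib, points are arrays, black lines are group means and the dotted line is the level of 5.79. In every panel the control recipients given D+T lie above those given vehicle, and the pmel-1 recipients given D+T have the highest mean of the 6 groups.

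Ddx58 encodes RIG-I, which recognises short duplex RNA with a free phosphate end. It read 7.14 and 7.33 in control vehicle replicates 1 and 3, and 9.08 and 9.30 in control combination replicates 2 and 3. The groups lay far apart compared with their own spread, and Ddx58 rose by 1.96 ± 0.17, or 3.89-fold (adjusted p = 1.74e-05). A second probe set of the gene rose by 1.84 ± 0.20, from readings under 5.79, and another, which read at most 6.42 on any array, was at 0.12 ± 0.17. Ifih1, whose product MDA5 recognises long duplex RNA, read 6.40 and 6.89 with vehicle and 8.06 and 7.98 with both drugs. It rose by 1.37 ± 0.23, or 2.59-fold (adjusted p = 8.80e-04). These sensors and Usp18 kept their calls when any single array was left out.

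Usp18 encodes a protease that removes Isg15 from proteins and damps signalling at the interferon receptor. It read 4.94 and 5.13 with vehicle, both under the background level, and 6.80 and 7.47 with both drugs. The rise of 2.10 ± 0.32 (adjusted p = 4.99e-04) was the highest of the 10, and its size is not exact, since the vehicle arrays lie under that level.

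The Ifit genes encode proteins that bind viral RNA ends and block translation. Ifit1 read 5.86 and 6.60 with vehicle and 7.85 and 7.56 with both drugs, a rise of 1.48 ± 0.41 (2.79-fold, adjusted p = 0.0155). Ifit3, its neighbour on chromosome 19, read 5.93 and 6.79 with vehicle and 7.81 and 8.09 with both drugs, a rise of 1.58 ± 0.41 (3.0-fold, adjusted p = 0.0111). For both genes vehicle replicate 3 was the higher of its pair by over 0.7. Ifit2, also a neighbour, already read 8.63 and 8.64 with vehicle and moved the least, to 9.29 and 9.10 (0.56 ± 0.16, 1.47-fold, adjusted p = 0.0162).

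The oligoadenylate synthetase Oas1a makes the messenger that activates RNase L, and Oasl2 is a related protein. Oas1a read 7.63 and 7.92 with vehicle and 8.57 and 8.79 with both drugs, and rose by 0.91 ± 0.23 (1.87-fold, adjusted p = 0.0108). Oasl2 read 4.35 and 4.67 with vehicle, under the background level, and 5.96 and 6.34 with both drugs, a rise of 1.64 ± 0.44 (adjusted p = 0.0126). Closely related Oas copies share sequence, and cross-hybridisation between them was not tested.

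Rsad2 encodes viperin, an enzyme that makes a chain-terminating nucleotide, and Mx1 a dynamin-like GTPase that traps viral components. Rsad2 read 7.89 and 7.25 with vehicle and 8.46 and 8.64 with both drugs (0.98 ± 0.34, 1.97-fold, adjusted p = 0.0451). This was the weakest of the 9 calls: it was lost in 8 of the 13 omissions of 1 array and at an adjusted p of 0.0511 without a filter on low values. Other probe sets of Rsad2 stood at 1.03 ± 0.40 and 0.57 ± 0.26, neither of them called. Mx1 read 4.76 and 4.85 with vehicle and 5.70 and 5.81 with both drugs, so only 1 of these 4 arrays exceeded the background level. The mouse annotation (GRCm38.p6, C57BL/6J) lists Mx1 as a transcribed pseudogene, and its readings refer to that transcript. Mx1 passed with an adjusted p of 0.00292 when pmel-1 combination replicate 2, which reads 7.95, was left out.

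With 2 arrays a group, the count of 9 rested on each control array. It was 5 without control combination replicate 3 and 4 without control vehicle replicate 1, with the differences of the 10 genes positive in each case. It was 6 without control combination replicate 2, 7 without control vehicle replicate 3, the array high in Acta1, and 10 without the 3 arrays high in Adipoq, none of which is from a control recipient. RNA quality was followed by how much brighter the 3′ than the 5′ probe sets of the control transcripts were, as a log2 difference called the 3′ bias here. It was 1.004 and 1.04 in control combination tumours and 1.24 and 1.01 in control vehicle tumours. With this bias in the model all 10 genes rose.

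Genes beyond the 10 were taken from lists chosen by function. Of 44 other tested genes of the type I interferon response 21 rose and 0 fell in control recipients, with a median of 0.45. In that comparison 18.7% of all genes rose and 16.7% fell, and the median of all genes was −0.003. Ifit1bl1, Slfn8 and Gm4951 read under 5.79 on all 4 control arrays and passed the filter only through arrays of pmel-1 recipients. These genes could hardly show a difference here, and they count towards the 44 and the median. The receptor transporter Rtp4 rose by 3.50 ± 0.25, the apoptosis factor Xaf1 by 2.44 ± 0.21, Lgals3bp by 1.83 ± 0.13, the transcription factor Irf9 by 1.78 ± 0.19, Ifi27 by 1.75 ± 0.15 and Trim25, a ubiquitin ligase that activates RIG-I, by 1.39 ± 0.20. Not all of the list moved: Bst2, the tetherin that holds budding virus, was at 0.27 ± 0.23 (adjusted p = 0.406) and Samhd1, which depletes nucleotides, at −0.09 ± 0.22 (adjusted p = 0.797). The count was 12 without control combination replicate 2 or 3 or control vehicle replicate 1, 13 without control vehicle replicate 3, and 13 with a replicate block.

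Genes that interferon gamma chiefly drives were counted on their own. Of 17 tested 3 rose and 2 fell in control recipients, where 18.7% of all genes rose and 16.7% fell. Their median was 0.02. The chemokine gene Cxcl9, Socs1 and Ciita, which switches on class II antigen presentation genes, did not exceed 5.79 on any of the 4 control arrays. They passed the filter only through arrays of pmel-1 recipients, so they could hardly show a difference here, and they count towards the median. The immunoproteasome gene Psmb8 was at 0.01 ± 0.19 (adjusted p = 0.969) and Psmb9 at −0.31 ± 0.23 (adjusted p = 0.339). The GTPases Irgm2, Gbp3 and Igtp rose, by 2.49 ± 0.32, 1.71 ± 0.38 and 1.03 ± 0.33. Irf8, a transcription factor of myeloid cells, fell by 3.28 on the log2 scale (SE 0.37, adjusted p = 6.95e-05) and the chemokine gene Cxcl11 fell by 0.83 (SE 0.18). The number called went from 5 to 8 without pmel-1 combination replicate 2 and to 9 in each of 3 other settings: the 3′ bias in the model, a fit on these 4 arrays alone, and the 3 arrays high in Adipoq left out.

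**Figure D2:**
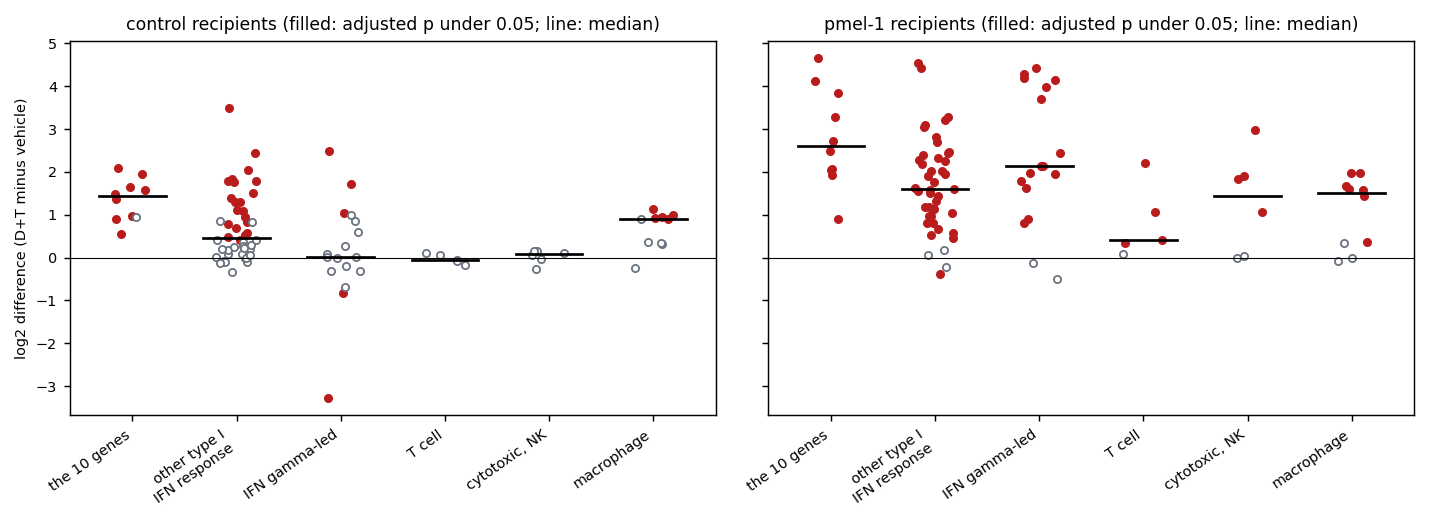
Log2 difference between combination and vehicle (y axis) for each tested gene of 6 lists (x axis), in control recipients on the left and pmel-1 recipients on the right, where D+T is dabrafenib and trametinib, filled points passed an adjusted p of 0.05 and lines are list medians. In control recipients the medians are 1.43 for the 10 genes, 0.45 for the other type I genes and 0.02 for the interferon gamma-led genes, and in pmel-1 recipients 2.61, 1.60 and 2.13. Some genes of the lists, such as Cxcl9, Ciita, Socs1, Cd3g, Gzma, Gzmb and Klrd1, read under 5.79 on all control arrays.

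T cell and NK cell markers were low in these tumours. On all 4 control arrays 4 of 8 T cell markers with a probe set (Cd3g, Cd247, Cd8b1 and Cd2) and 3 of 6 cytotoxic and NK markers (Gzma, Gzmb and Klrd1) read under 5.79. By limma 0 of 5 tested T cell markers and 0 of 6 cytotoxic and NK markers were called between combination and vehicle, and 0 and 0 had an unadjusted p under 0.05. The tested markers include Cd3g, Gzma, Gzmb and Klrd1, which passed the filter only through arrays of pmel-1 recipients. At readings this low a difference could hardly show, so their lack of a call says little. The mean over the T cell markers ran from 5.94 to 5.95 with both drugs and from 5.91 to 6.03 with vehicle. Over all genes 18.7% rose and 16.7% fell in this comparison. Macrophage markers did move: 5 of 10 rose, with a list mean of 8.71 to 8.95 against 8.17 to 8.18. So did 4 of 7 general leukocyte markers (8.44 to 8.58 against 7.82 to 7.83). Other myeloid lists did not rise. Of 4 tested dendritic cell markers 0 rose and 1 fell (list mean 6.22 to 6.41 against 6.34 to 6.555). The 1 tested neutrophil marker was at −0.07, not called. Fibroblast markers had a mean of 9.96 to 10.49 with both drugs against 8.28 to 9.47 with vehicle and a median difference of 1.43, and 2 of 6 rose, the matrix proteoglycan genes Dcn and Lum. Of 5 endothelial markers 1 rose, Vwf (list mean 6.92 to 7.31 against 6.50 to 6.73), a count near the share of all genes. Of the 7 pigment cell markers 5 rose, with a mean of 12.65 on both combination arrays against 11.97 and 11.98 on the vehicle arrays, Pmel by 1.53 ± 0.15. The part of these cells in the rise of the 10 genes was not tested. Of 5 tested markers of plasmacytoid dendritic cells, which secrete much interferon, limma called 0, with 1 at an unadjusted p under 0.05.

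Genes of the nucleic acid sensing pathway were called in both directions in control recipients. Of 21 tested genes, 6 of them also on the type I list, 8 rose and 2 fell, where 18.7% of all genes rose and 16.7% fell. On the RNA side Trim25 rose by 1.39 ± 0.20, Rnf135, another ligase of RIG-I, by 1.01 ± 0.19, the antiviral zinc finger gene Zc3hav1 by 0.78 ± 0.14, the endosomal RNA receptor Tlr3 by 0.54 ± 0.13 and the helicase Dhx58 by 0.68 ± 0.24. On the DNA side Cgas, which detects DNA in the cytosol, fell by 0.57 on the log2 scale (SE 0.15, adjusted p = 0.0114), and its effector Sting1 fell by 0.86 (SE 0.19, adjusted p = 0.0043). Both are named for their small p, and Aim2 and Ifi204 read too low to be tested. Tlr9 and Zbp1, also on the list, were tested and were not among the 2 that fell. The 2 sides were not compared by a test. The adaptor Mavs was at 0.19 ± 0.15 and the kinase Tbk1 at 0.21 ± 0.12, neither called.

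None of the measured interferon genes was called in control recipients. Of 9 interferon genes with a probe set, 6, Ifng among them, never exceeded 5.37 on any array. Those tested were Ifnb1 at −0.19 ± 0.12, Ifna1 at −0.17 ± 0.15 and Ifna9 at −0.27 ± 0.18, none called, and Ifnb1 read 5.75 to 6.14 over all 13 arrays, near the background level. The receptor genes were well above it and both type I chains rose in control recipients, Ifnar1 by 0.64 ± 0.14 (adjusted p = 0.00426) and Ifnar2 by 0.50 ± 0.13 (adjusted p = 0.0104). So did Tyk2 (0.37 ± 0.12), Jak2 (0.74 ± 0.14) and the lambda interferon receptor gene Ifnlr1 (0.62 ± 0.12). Jak1 (0.43 ± 0.20), Ifngr1 (−0.02 ± 0.10) and Ifngr2 (0.53 ± 0.21) were not called.

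In pmel-1 recipients the combination raised all 10 genes, by 0.90 to 4.66 with a median of 2.61, where 24.3% of all genes rose and the median of all genes was 0.02. All 10 read higher on each of the 3 combination arrays than on both vehicle arrays, as did 33.5% of all genes. Oasl2 read 4.28 and 4.63 with vehicle and 8.52, 9.98 and 8.85 in combination replicates 1 to 3, a rise of 4.66 ± 0.40 (adjusted p = 9.63e-06). Usp18 read 5.17 and 5.21 with vehicle and 9.20, 9.90 and 8.87 with both drugs (4.13 ± 0.29, adjusted p = 3.92e-06). Vehicle readings of both genes lay under the background level, so that these sizes are not exact.

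Ifit3 went from 6.58 and 6.32 to 10.21, 10.95 and 9.69 (3.83 ± 0.37, 14.3-fold) and Ifit1 from 7.08 and 6.07 to 9.67, 10.51 and 9.42 (3.29 ± 0.37, 9.78-fold). Oas1a went from 7.55 and 7.45 to 10.01, 10.63 and 10.04 (2.73 ± 0.21, 6.63-fold). Combination replicate 2 was the highest of its 3 arrays on all 10 genes. The sensors reached 9.48, 9.94 and 9.66 for Ddx58, from 7.21 and 7.22 (2.48 ± 0.16, 5.59-fold), and 8.89, 9.45 and 8.79 for Ifih1, from 7.22 and 6.72 (2.07 ± 0.21, 4.20-fold). Rsad2 rose by 2.04 ± 0.31, Mx1 by 1.93 ± 0.35 and Ifit2, from 8.55 and 8.43 to 9.44, 9.64 and 9.10, by 0.90 ± 0.14. A second probe set of Rsad2 rose by 1.40 ± 0.36, and another was at 0.41 ± 0.24, not called. The 10 calls held when any single array was left out. With a stricter filter, 7.06 on at least 2 arrays, Mx1 was not tested and the other 9 genes rose. The 3′ bias was 1.46 to 1.81 on the combination arrays, highest on replicate 2, against 1.25 to 1.28 on the vehicle arrays, and with it in the model all 10 genes rose.

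The wider lists were counted in the same way in pmel-1 recipients, where 24.3% of all genes rose. Of the 44 other type I genes 40 rose and 1 fell, with a median of 1.60, and Bst2, which had not been called in control recipients, rose by 2.45 ± 0.21. The interferon gamma-led genes rose in 15 of 17 cases, with a median of 2.13. Of the 21 sensing genes 12 rose and 0 fell, and Sting1 (−0.32 ± 0.17, adjusted p = 0.158) and Cgas (0.18 ± 0.14, adjusted p = 0.304) were not called. T cell markers rose in 4 of 5 cases, cytotoxic and NK markers in 4 of 6, macrophage markers in 7 of 10, general leukocyte markers in 6 of 7, pigment cell markers in 6 of 7, endothelial markers in 2 of 5 and fibroblast markers in 1 of 6. By limma dendritic cell markers rose in 1 of 4 cases, plasmacytoid dendritic cell markers in 0 of 5 and B cell markers in 0 of 2. The part of all these cell types in the rise of the 10 genes was not tested. Some genes passed the filter only through arrays of pmel-1 recipients, which bears on the counts given here. They include Cd3g, Gzma, Gzmb, Klrd1, the interferon gamma-led genes Cxcl9, Ciita and Socs1, and Ifit1bl1, Slfn8 and Gm4951 of the other type I genes.

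**Figure D3:**
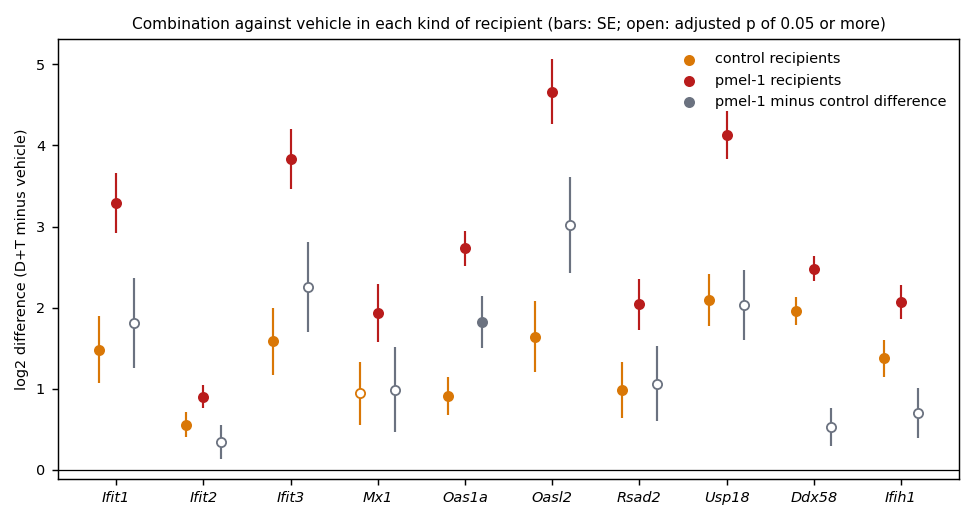
Log2 difference between dabrafenib with trametinib (D+T) and vehicle (y axis) for each of the 10 genes (x axis) in control and in pmel-1 recipients, with the difference between the 2 in grey, bars showing the SE and open symbols an adjusted p of 0.05 or more. The grey values run from 0.35 for Ifit2 to 3.02 for Oasl2, and only that of Oas1a is filled.

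Whether the combination moved these genes further in pmel-1 than in control recipients was tested by the interaction. All 10 estimates were positive, with a median of 1.43, and 1 passed, Oas1a at 1.82 ± 0.32 (adjusted p = 0.0498), where 0.232% of all genes passed with a positive sign. Oasl2 stood at 3.02 ± 0.59 (adjusted p = 0.0678), Usp18 at 2.03 ± 0.43 (adjusted p = 0.0885) and Ifit3 at 2.25 ± 0.56 (adjusted p = 0.126). Ddx58 had 0.52 ± 0.24 (adjusted p = 0.306), Ifih1 0.70 ± 0.31 (adjusted p = 0.305) and Ifit2 0.35 ± 0.21 (adjusted p = 0.448). The control difference was 78.9% of the pmel-1 difference on the log2 scale for Ddx58, 66.4% for Ifih1 and 61.7% for Ifit2, and from 33.2% (Oas1a) to 50.8% (Usp18) for the other genes. These shares were not tested against each other. Oas1a lost its call without any 1 of the control or pmel-1 vehicle, combination or trametinib arrays, at 1.62 to 1.97, and at 1.34 with the 3′ bias in the model, so that the count was then 0. It was 2 without dabrafenib replicate 1 or 2, and 3 without the 3 arrays high in Adipoq.

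Without drugs no difference between the transfers was called on these genes. Under vehicle limma called 0 of the 10 between pmel-1 and control recipients, 1 having an unadjusted p under 0.05, and 0 of all 13785 genes (0%), 1822 of them at an unadjusted p under 0.05. The estimates ran from −0.27 ± 0.23 for Oas1a to 0.90 ± 0.34 for Rsad2, whose readings of 8.69 and 8.25 in pmel-1 vehicle tumours lay above 7.89 and 7.25 in control vehicle tumours.

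Under the combination 7 of the 10 were higher in pmel-1 recipients, where 2.66% of all genes were. These were Oasl2 (2.97 ± 0.40), Ifit3 (2.34 ± 0.37), Usp18 (2.19 ± 0.29), Ifit1 (2.16 ± 0.37), Rsad2 (1.96 ± 0.31), Oas1a (1.55 ± 0.21) and Ifih1 (1.02 ± 0.21, adjusted p = 0.0254). A second probe set of Rsad2 was also higher, by 1.49 ± 0.36, and another was at 0.63 ± 0.24, not called. Mx1 was at 1.25 ± 0.35 (adjusted p = 0.0693), Ddx58 at 0.51 ± 0.16 (adjusted p = 0.0872) and Ifit2 at 0.20 ± 0.14 (adjusted p = 0.434), whose arrays overlapped between these groups. On the other 9 genes all pmel-1 arrays read above both control arrays, as they did for 19.8% of all genes. The 3′ bias also differed, at 1.46 to 1.81 against 1.004 to 1.04, and with it in the model limma called 0 of the 10. As the bias did not overlap between these groups, that model could hardly separate it from the transfer, and the 2 cannot be told apart here. The count was 3 without control combination replicate 2. T cell markers had a mean of 6.79 to 7.13 against 5.94 to 5.95, cytotoxic and NK markers 6.55 to 7.16 against 5.52 to 5.55 and general leukocyte markers 9.996 to 10.38 against 8.44 to 8.58. Their part in the difference was not tested.

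Each drug alone was then compared with vehicle in pmel-1 recipients. These comparisons share their 2 vehicle arrays with each other and with that of the combination. Dabrafenib raised all 10 genes (21.8% of all genes rose) and trametinib 9 of them (19.5% of all genes). Oasl2 read 8.24 and 9.11 with dabrafenib and 7.67 and 6.89 with trametinib, rises of 4.22 ± 0.44 and 2.83 ± 0.44. Oas1a read 9.55 and 10.11 with dabrafenib and 9.04 and 8.72 with trametinib, rises of 2.33 ± 0.23 and 1.38 ± 0.23. For both genes the dabrafenib arrays lay above the trametinib arrays.

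Usp18 read 8.42 and 8.93 with dabrafenib and 8.53 and 8.01 with trametinib, overlapping ranges (3.48 ± 0.32 and 3.08 ± 0.32 over vehicle). Ddx58 read 9.46 and 9.61 with dabrafenib and 9.31 and 8.87 with trametinib (2.32 ± 0.17 and 1.88 ± 0.17), and Ifih1 8.66 and 8.79 against 8.28 and 8.25 (1.76 ± 0.23 and 1.30 ± 0.23). Ifit3 rose by 3.19 ± 0.41 and 2.37 ± 0.41, Ifit1 by 2.59 ± 0.41 and 2.26 ± 0.41, Rsad2 by 1.48 ± 0.34 and 1.44 ± 0.34 and Mx1 by 1.27 ± 0.39 and 1.24 ± 0.39. Other probe sets of Rsad2 were not called for either drug. They stood at 0.90 ± 0.40 and 0.16 ± 0.26 with dabrafenib and at 0.94 ± 0.40 and 0.31 ± 0.26 with trametinib. Ifit2 rose with dabrafenib, by 0.55 ± 0.16 (adjusted p = 0.0146), and stood at 0.20 ± 0.16 (adjusted p = 0.353) with trametinib, where its readings of 8.60 and 8.78 were just above the 8.55 and 8.43 of vehicle. The 3′ bias was 1.36 and 1.87 with dabrafenib and 1.78 and 1.51 with trametinib, against 1.28 and 1.25 with vehicle. Mean readings of the general leukocyte markers were 9.93 to 10.45 with dabrafenib, 8.67 to 9.12 with trametinib and 8.31 to 8.37 with vehicle, and their part was not tested. The calls of Mx1 for both drugs, of Ifit2 for dabrafenib and of Rsad2 for trametinib were lost with the 3′ bias in the model. Those of Mx1 and Rsad2 for both drugs and of Ifit2 for dabrafenib also did not hold in every omission of 1 array. The difference then ran from 1.08 to 1.46 with dabrafenib and 0.96 to 1.53 with trametinib for Mx1. It ran from 1.21 to 1.74 and 1.22 to 1.66 for Rsad2, and from 0.49 to 0.61 with dabrafenib for Ifit2.

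**Figure D4:**
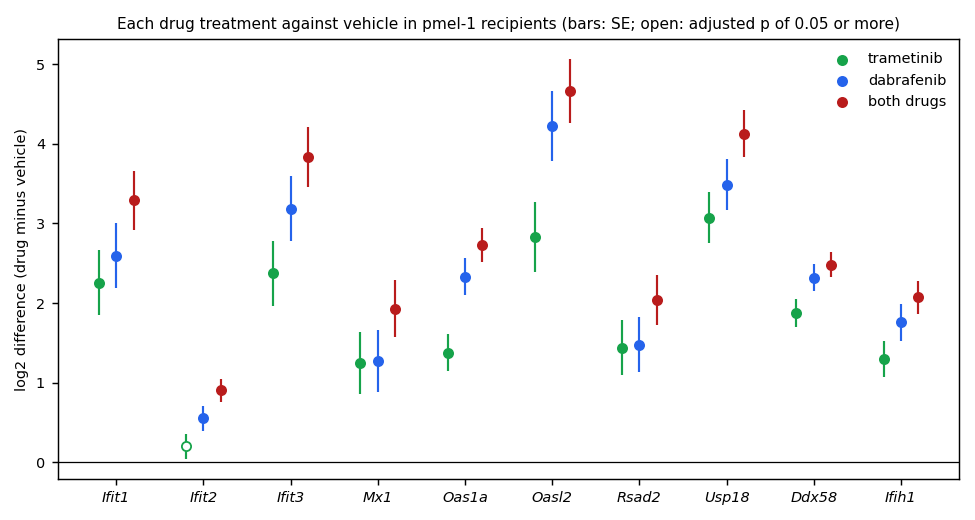
Log2 difference from vehicle (y axis) for each of the 10 genes (x axis) in pmel-1 recipients given trametinib, dabrafenib or both drugs, with bars showing the SE and open symbols an adjusted p of 0.05 or more. All 30 values are above 0, and the only open symbol is that of Ifit2 with trametinib, at 0.20.

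Between the treatments themselves few differences passed. Dabrafenib against trametinib gave 0 calls by limma among the 10, 4 having an unadjusted p under 0.05, where 0.776% of all genes were called. Oasl2 was at 1.39 ± 0.44 (adjusted p = 0.200) and Oas1a at 0.95 ± 0.23 (adjusted p = 0.103). The combination exceeded trametinib for Oas1a (1.35 ± 0.21, adjusted p = 0.0192) and Ifit2 (0.70 ± 0.14, adjusted p = 0.0435), where 0.856% of all genes did, and Oasl2 stood at 1.83 ± 0.40 (adjusted p = 0.0598). These 2 calls became 0 without trametinib replicate 1 or 2 or with a replicate block, 1 when any array of the vehicle or control combination groups or pmel-1 combination replicate 1 or 2 was left out, and 3 without dabrafenib replicate 1 or 2. Against dabrafenib 0 of the 10 passed by limma, 2 at an unadjusted p under 0.05, and 0 of all genes (0%), 246 of them at an unadjusted p under 0.05. The estimates were all positive, from 0.16 ± 0.16 for Ddx58 to 0.70 ± 0.37 for Ifit1.

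Over the 6 groups the mean log2 reading of the 10 genes was 6.35 and 6.61 in control vehicle tumours, 6.75 and 6.53 in pmel-1 vehicle tumours and 7.76 and 7.91 in control combination tumours. In pmel-1 recipients it was 8.63 and 8.24 with trametinib, 8.72 and 9.19 with dabrafenib and 9.23, 10.01 and 9.10 with both drugs. Neighbours in this order that overlap are the vehicle groups with each other and the dabrafenib and combination groups. The control combination arrays stand clear of both neighbours.

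As a description over the same 13 arrays, which share their groups, each of 9 genes correlated with the mean of the other members at r = 0.93 to 0.99, and Ifit2 at r = 0.76. The tested genes whose pattern lay closest to the mean of the 10, leaving out RIKEN, Gm and LOC symbols, were Parp9 (r = 0.99), Parp12 (0.99), the ubiquitin ligase Rnf213 (0.99), Stat2 (0.99) and Irgm2 (0.99).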

How the data were processed

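Tumour RNA was measured on 13 single-colour Affymetrix mouse expression arrays. The deposited values are log2 intensities that the authors summarised with RMA in affy, per the submitters' processing notes. Probe sets were named from GEO's platform annotation: of 45101, 34945 had 1 symbol, 932 several, 9160 none and 64 were array controls. The probe set with the highest mean stood for a gene. Tested were the 13785 genes that exceeded 5.79 (percentile 40 over the whole table) on at least 2 arrays. Array medians ran from 6.31 to 6.41. Group means of the 6 groups were fitted over the 13 arrays by lmFit and eBayes (limma version 3.58.1, R version 4.3.3), which left 7 residual degrees of freedom, with Benjamini-Hochberg adjustment within each of 10 contrasts. The scripts were tested on simulated data. The members and lists were chosen with earlier results of these data known.

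Named genes are all 10 members, up to 6 genes of each list with the smallest p for the combination in control recipients and up to 4 for the interaction, every measured interferon and receptor gene, the 5 genes most correlated with the members' mean, and markers. Mavs and Tbk1 were added after their values were seen. Alternatives changed the filter, probe set choice, centring, variance model, covariates and arrays used. Replicate numbers of different groups were checked for pairing: over 23 pairs the correlation of deviations ran from −0.46 to 0.45, with 4 over 0.1, so numbers were not taken to pair samples.

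The 3′ bias is the mean, over the array's control probe sets for actin, Gapdh, the transferrin receptor and pyruvate carboxylase, of the log2 difference between 3′ and 5′ readings.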

Additional observations from a re-analysis of the deposited data

Results flagged for a closer look

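The effect of the combination differed between pmel-1 and control recipients, by the interaction test in limma with Benjamini-Hochberg adjustment, for 1 of the 10 genes, Oas1a, at 1.82 on the log2 scale. Among the genes named from the wider interferon lists the same test passed for Bst2 at 2.18. It also passed for the interferon gamma-led genes Cxcl9 at 4.17, Igtp at 3.11, Iigp1 at 2.84, Psmb9 at 2.10 and Psmb8 at 1.94. Each of these differences was positive, the larger change being in pmel-1 recipients. Of the marker lists, 1 of 5 tested T cell markers, 3 of 6 cytotoxic and NK markers and 2 of 7 general leukocyte markers also passed with a positive sign. Over all genes 0.232% did. Among these markers Cd3g, Gzma, Gzmb and Klrd1 passed the filter only through arrays of pmel-1 recipients. The size for Cxcl9 is not exact, since it read under 5.79 on all 4 control arrays. For Oas1a the difference was 1.34 (adjusted p = 0.273) with the 3′ bias in the model, and its call was lost in 11 of the 13 omissions of 1 array. The part of T cells in these differences was not tested, nor, for the other genes named here, that of RNA quality and single arrays.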

How the results depend on the processing

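Groups of 2 or 3 arrays limit every comparison, and low readings such as those of Mx1, Oasl2 and Usp18 with vehicle limit the sizes. Leaving out 1 array at a time, the count of members called ran from 4 to 10 for the combination in control recipients, from 0 to 2 for the interaction, from 3 to 8 between transfers under the combination, from 0 to 3 for combination against trametinib and from 0 to 1 for dabrafenib against trametinib. With the 3′ bias in the model the interaction count was 0 in place of 1. Between transfers under the combination it was 0 in place of 7, but there the bias did not overlap between the groups and cannot be told apart from the transfer. With the bias in the model the count was 5 in place of 2 for combination against trametinib and 1 in place of 0 for dabrafenib against trametinib. The interaction count was 3 without the 3 arrays high in Adipoq, an alternative chosen after seeing the data, and 2 with array weights, with centred arrays or with only the arrays compared. Combination against trametinib gave 1 call with each probe set on its own or with only the arrays compared. With the replicate number as a block the count was 7 in place of 9 in control recipients, 0 for the interaction, 0 for combination against trametinib, and 13 in place of 21 for the other type I genes. The cause was not tested.

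Estimates near 0 changed sign without being called. Between transfers under vehicle Ddx58 was at 0.0144 with centred arrays and 0.0257 with the replicate block, and with the 3′ bias in the model Ifit3 was at −0.14 and Usp18 at −0.0434. Leaving out 1 array gave −0.11 to 0.0779 for Ddx58, −0.16 to 0.86 for Ifit1, −0.35 to 0.52 for Ifit3 and −0.23 to 0.12 for Oasl2. Between dabrafenib and trametinib centring gave −0.0146 for Mx1 and −0.0035 for Rsad2, and Rsad2 was at −0.0241 without the arrays high in Adipoq and −0.0499 as the mean of its probe sets. Leaving out 1 array there gave −0.0233 to 0.70 for Ifit1, −0.26 to 0.30 for Mx1 and −0.23 to 0.30 for Rsad2. Of the other values of single members, 2281 kept their side of the threshold, 90 lost a call and 27 gained one.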
